A study of Mus musculus with 47 samples.

Results

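The RNA polymerase II (RNAPII) peaks of mouse liver tumours whose tet-Myc transgene had been switched off for 16 h were set against those of control liver. The comparison took every deposited RNAPII peak list of these groups, 3 from switched-off tumours and 4 from control livers, which are 7 of the 46 libraries with a peak list in a series of 47 samples. All mice were of the FVB strain. The switched-off tumours carried tet-Myc together with LAPtTA, the liver-specific transactivator that drives the transgene from before birth, and their mice ate food with doxycycline, which silences it, for 16 h. Control liver 1 carried tet-Myc without expressing it, control liver 2 carried LAPtTA, and control livers 3 and 4 were wild type, so no control had both transgenes, and tumour growth, the combined transgenes and the 16 h with doxycycline cannot be told apart in this comparison. The labels name a wild-type and a mutant (V394D) tet-Myc without saying which of them each tumour had, and they leave unsaid whether each library stands for an animal of its own. The 4 RNAPII libraries of tumours with both transgenes and Myc on are given beside the results. They entered the same statistical fit for percent covered.

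RNAPII transcribes the protein-coding genes. It is recruited to promoters, commonly pauses just downstream of the start site, and is then released into the gene body, so that a list of its peaks can hold short intervals at promoters as well as long ones over genes that are being transcribed. The N20 antibody used here was raised against the N-terminus of the largest subunit and detects the enzyme whether or not its C-terminal domain is phosphorylated. H3K4me3 lies mainly at promoters, and H3K27ac at active promoters and enhancers. Myc is a transcription factor that binds many active promoters. The lists give peak positions on the mm9 build without any counts of reads. Depth is therefore unknown for every library, and an absent peak means only that none was called. No mm9 annotation was at hand. Regions are therefore named by their position, without genes, and the tissue could not be checked against its marker genes. In whole tissue, fewer cells of a type that carries a peak and less RNAPII per cell cannot be told apart.

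The Myc lists of these groups gave a check of the switch. They held between 19269 and 55763 peaks in 6 tumours with Myc on, between 98 and 331 in the 3 switched-off tumours and between 1002 and 8499 in the 4 control livers. Peaks on chromosome Y were listed for RNAPII in 2 of the 4 control livers (numbers 1 and 3) and in 1 of the 3 switched-off tumours (number 3). All 11 library numbers gave the same answer in the RNAPII, H3K4me3 and H3K27ac lists. The part of sex in the results was not tested.

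Switched-off tumours had fewer RNAPII peaks than control liver, and their peaks were wider, but neither difference passed adjustment. The lists of control livers 1 to 4 held 20931, 17031, 15152 and 16190 peaks. Those of switched-off tumours 1 to 3 held 11916, 12239 and 14834. Every switched-off list was shorter than every control list, at 12996 ± 1600 (SD, n = 3) against 17326 ± 2523 (SD, n = 4; exact two-sided permutation p = 0.0571, adjusted p = 0.103 over 9 values of the lists). With 4 libraries against 3 this test cannot go below 0.0286. The genome covered by these peaks did not follow their number. It was 123.9, 81.1, 80.3 and 93.2 Mb in control livers 1 to 4 and 69.9, 102.0 and 146.5 Mb in switched-off tumours 1 to 3 (p = 0.686, exact permutation), so that the switched-off group held both the lowest and the highest value.

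Fewer but wider peaks made up the covered length of switched-off tumours 2 and 3. The median peak width was 2782, 2170, 2305 and 2562 bp in control livers 1 to 4, and 2590, 3384 and 4190 bp in switched-off tumours 1 to 3 (exact permutation p = 0.0571, adjusted p = 0.103). Peaks of at least 10 kb made up 16.8%, 12.7%, 15.1% and 17.0% of the control lists and 17.7%, 24.7% and 29.6% of the switched-off lists. The 90th percentile of width behaved alike, with 11979 to 14704 bp in control livers and 15025 to 25412 bp in switched-off tumours. For the last 2 measures the groups did not overlap (exact permutation p = 0.0286, the smallest possible, adjusted p = 0.103 for each), although switched-off tumour 1 lay close to the highest control in both. In tumours with Myc on, peaks of at least 10 kb made up 14.5% ± 9.25 (SD, n = 4) of the lists. The longest peak of any control list measured 166111 bp, and the longest of switched-off tumours 1 to 3 measured 129287, 180333 and 303829 bp.

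**Figure D1:**
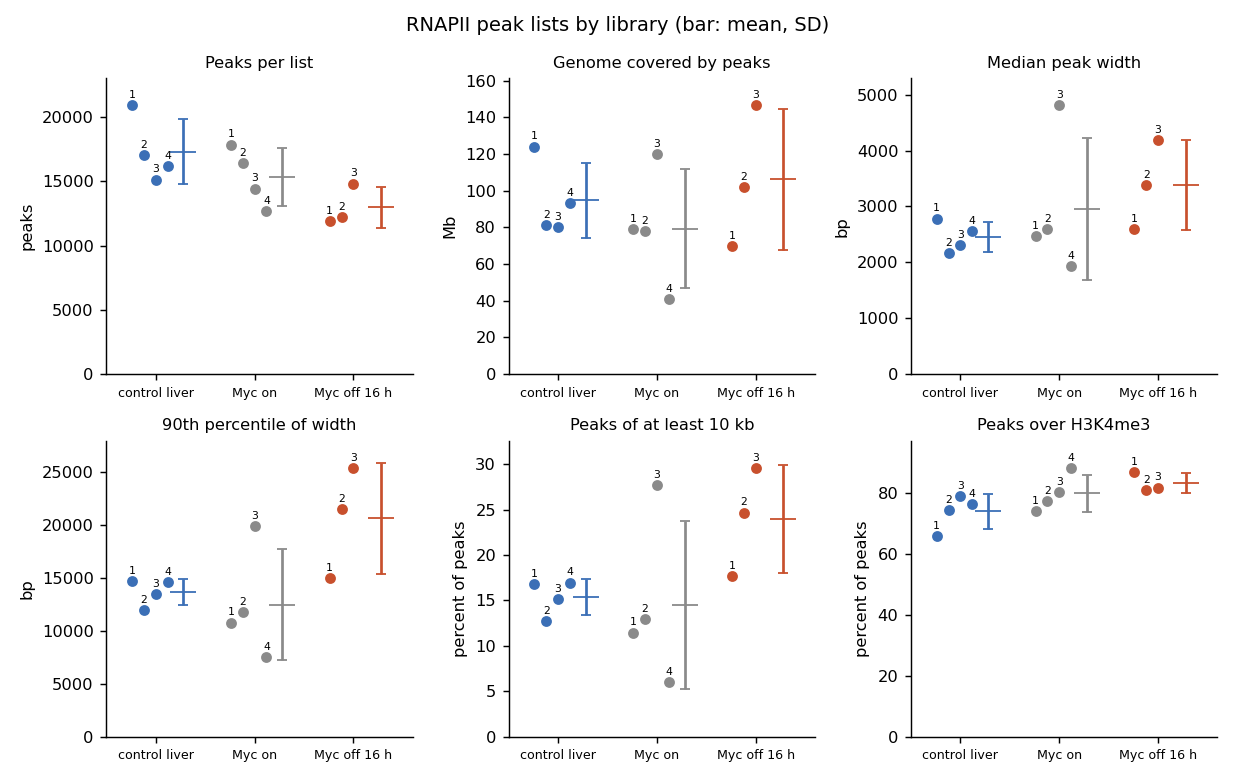
Each point is the RNAPII peak list of 1 library, labelled with its replicate number; the horizontal mark is the group mean and the bar its SD. All 3 switched-off lists lie below all 4 control lists in number of peaks (14834 at most against 15152 at least) and above them in the share of peaks of at least 10 kb (17.7% at least against 17.0% at most), while the covered length overlaps.

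A larger share of the switched-off peaks lay over H3K4me3, again short of the threshold after adjustment. Peaks overlapping an H3K4me3 region (one found in at least 2 of the 7 H3K4me3 libraries of both groups) made up 65.9%, 74.4%, 79.0% and 76.4% of the lists of control livers 1 to 4. They made up 86.8%, 81.0% and 81.7% of those of switched-off tumours 1 to 3. No switched-off tumour overlapped with the controls (exact permutation p = 0.0571, adjusted p = 0.103). Peaks over H3K27ac without H3K4me3 made up 16.0% ± 4.69 (SD, n = 4) of the control lists and 8.61% ± 1.97 (SD, n = 3) of the switched-off lists (exact permutation p = 0.0857, adjusted p = 0.129). Control liver 1, with the longest list, had the highest share of these, at 22.0%. Peaks over neither mark made up 10.1% ± 1.82 and 8.21% ± 1.47 (exact permutation p = 0.229). These shares count an overlap of 1 bp, which wide peaks meet more easily. With at least 50% of the peak covered by the mark, the difference between the groups was 1.81 percentage points for H3K4me3 in place of 9.24 (exact permutation p = 0.771), and -4.28 in place of -7.37 for H3K27ac alone.

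Merging the peaks of all 11 RNAPII libraries wherever they overlapped by at least 1 bp gave 21522 regions, of which 16931 had a peak in at least 2 libraries and were tested. Of these, 16096 had a peak in at least 1 of the 7 libraries compared. All 7 libraries had a peak at 7550 regions, 44.6% of those tested. A further 904 regions (5.34%) had a peak in all 4 control livers but none in the switched-off tumours. The reverse, a peak in all 3 switched-off tumours but none in the control livers, was found at 259 (1.53%). The 904 control-side regions were short, with a median length of 4480 bp, while the regions present in all 7 libraries had a median of 11450 bp. Of these 904, 626 also had no peak in any of the 4 tumours with Myc on, as did 19.7% of all tested regions. Of the 259 regions of the opposite kind, 36 had no peak with Myc on and 95 had one in all 4 such tumours. Over all tested regions these shares were 19.7% and 53.1%. H3K27ac without H3K4me3 marked 30.9% of the 904 control-side regions, 12.4% of the 259 others and 15.6% of all tested regions. Lists of different length give such patterns unequal chances, since the control lists were the longer ones.

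The shared part of the covered bases was mostly smaller between groups than within them. Of the bases covered by either of a pair of control livers, 50.4% to 58.4% were covered by both. Between pairs of switched-off tumours the share was 42.2% to 51.8%. Between a control liver and a switched-off tumour it was 34.9% to 42.6%.

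The percent of each region covered by a library's peaks was compared with limma, and 1419 of the 16931 regions (8.38%) passed, with an adjusted p below 0.05 (Benjamini-Hochberg). RNAPII coverage was higher in switched-off tumours at 564 regions (3.33%) and lower at 855 (5.05%), so 39.7% of the calls were higher. The balance between the directions depended on single libraries and on scaling. Without switched-off tumour 1, which had the least coverage, 844 regions were called higher and 501 lower, so 62.8% were higher. With the mean coverage of each library as a covariate, 1246 were called higher and 1128 lower (52.5% higher). With each list shortened to its 11916 widest peaks, 484 and 466 were called (50.9% higher). That setting dropped the shortest peaks of the longer lists, and among short regions more were called lower than higher. Against the 2 wild-type control livers alone, 284 and 889 were called (24.2% higher). With presence in place of percent covered, 224 and 830 were called (21.3% higher). Presence is only yes or no, so limma had no spread to measure where the libraries of each group agreed. The presence counts are therefore a description and carry little weight as tests. Without switched-off tumour 2 the number of calls fell to 630, without control liver 1 to 901 and without control liver 2 to 944. The other libraries left out in turn gave 305 higher and 771 lower without control liver 3, 368 and 714 without control liver 4, and 317 and 726 without switched-off tumour 3. Calls in both directions were made in all of these fits, but the prevailing direction differed between them.

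Irrespective of the test, the values of the groups did not overlap, with all 3 switched-off tumours above all 4 control livers, at 1514 regions (8.94%). All 3 were below all 4 at 1668 regions (9.85%). Of the called regions, 540 of the 564 higher ones and 748 of the 855 lower ones had no overlap between the groups. Over the higher regions, the median of the group mean was 12.8% covered in control livers, 31.3% in tumours with Myc on and 79.8% in switched-off tumours. Over the lower regions it was 72.4% in control livers and 0% in both kinds of tumour.

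Of the 855 lower regions, 534 (62.5%) had no peak in any switched-off tumour, and 546 (63.9%) had none in any tumour with Myc on. Over all tested regions these shares were 25.4% and 19.7%. Of the 564 higher regions, 125 (22.2%) had no peak in any control liver, against 11.9% of all tested regions, and 336 (59.6%) had one in all 4, against 59.8%. The mean with Myc on lay nearer to the switched-off mean than to the control mean at 793 of the 855 lower regions, and at 172 of the 564 higher ones. At 392 of the higher regions it lay nearer to the control mean. Over all 16931 tested regions it lay nearer to the switched-off mean at 8853 and nearer to the control mean at 7243. All 4 tumours with Myc on were below all 3 switched-off tumours at 329 of the higher regions, and at 1228 of all tested regions. These counts describe the values of the 3 groups. They carry no test, because the regions were picked by their switched-off values, and the RNAPII list of tumour 4 with Myc on covered only 40.9 Mb.

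Length separated the directions. The median length of higher regions was 19198 bp, against 6261 bp for lower regions and 6660 bp for all regions tested. Of the 1963 regions of up to 2 kb, 0.662% were called higher and 7.39% lower. Of the 2821 regions of 20 to 50 kb, 6.59% were called higher and 5.57% lower. Of the 820 regions over 50 kb, 10.6% were called higher and 6.22% lower. The share called higher thus went up in every step of length, while the share called lower was lowest, at 3.40%, between 5 and 10 kb. When each library of the 2 groups was left out of the fit in turn, the median length was between 13832 and 20642 bp for higher regions. For lower ones it was between 4779 and 8083 bp. The regions remained those merged from all 11 libraries, so the library left out still shaped their lengths. With presence in place of percent covered it was 8062 bp for the higher regions and 4480 bp for the lower ones. A merged region is as long as the widest peaks in it, so length itself depends on the libraries with wide peaks.

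**Figure D2:**
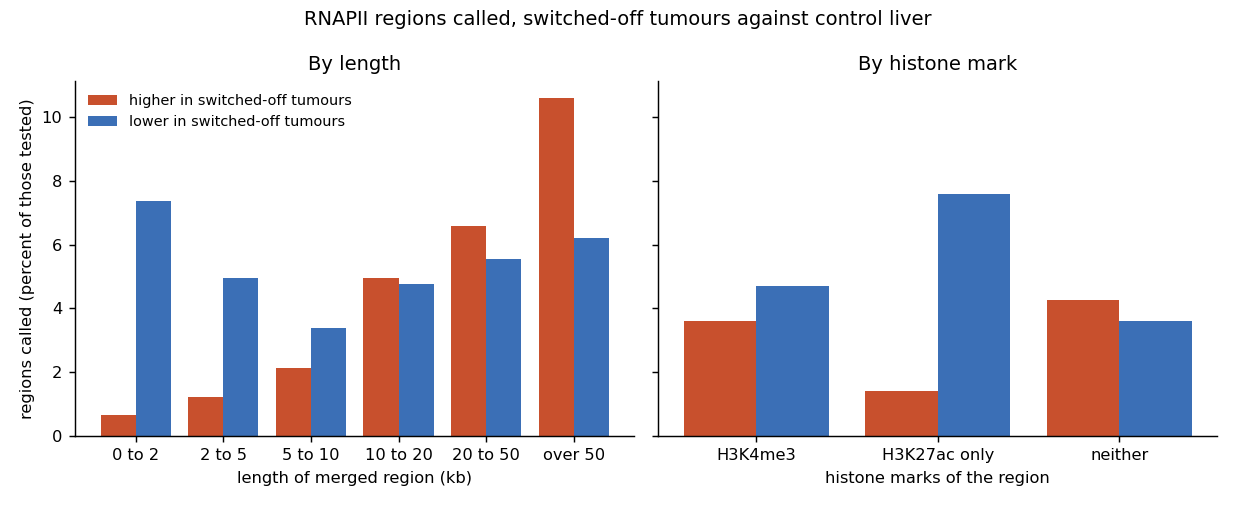
The bars give the percent of tested RNAPII regions called higher or lower in switched-off tumours, by length of the merged region (left) and by histone mark (right). Short regions were mostly called lower (7.39% against 0.662% up to 2 kb) and regions over 50 kb mostly higher (10.6% against 6.22%), and regions with H3K27ac alone were called lower at 7.59% and higher at 1.40%.

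Regions with H3K4me3, the mark of promoters, were 74.4% of those tested and held 80.7% of the higher and 69.5% of the lower calls. Of the 12604 such regions, 455 (3.61%) were called higher and 594 (4.71%) lower. The 2634 regions with H3K27ac and no H3K4me3 were called higher at 37 (1.40%) and lower at 200 (7.59%). Of the 1693 regions with neither mark, 72 (4.25%) were called higher and 61 (3.60%) lower. The H3K27ac-only regions were short, with a median length of 3874 bp, against 6957 bp for H3K4me3 regions and 9970 bp for those with neither.

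The histone lists, which the RNAPII calls did not use, differed between the groups at many of the same regions. At 45.4% of the higher regions, all 3 switched-off tumours had more H3K27ac coverage than all 4 control livers, against 17.9% of all tested regions and 3.04% of the lower ones. The opposite, H3K27ac lower in every switched-off tumour, held at 17.5% of the lower regions, against 2.82% of all tested regions and 0.355% of the higher ones. H3K4me3 was above the controls without overlap at 55.7% of higher regions, 30.8% of all tested regions and 6.08% of lower ones. It was below them without overlap at 18.6% of lower regions, 2.49% of all tested regions and 0% of higher ones. The length of the histone lists also differed, and its part in the high background for gains was not tested. The H3K4me3 lists held 12999 to 15821 peaks in control livers and 18502 to 19876 in switched-off tumours. Those of H3K27ac held 9696 to 14140 and 13688 to 17856, with overlap between the groups.

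Regions of the 2 directions overlapped sites of Myc binding to different extents. A Myc region present in all 6 tumours with Myc on overlapped 63.3% of higher regions, 28.1% of lower regions and 53.0% of all tested regions. Long regions overlap more sites, and the shares also differed within a band of length. Among regions of 20 to 50 kb they were 71.0% for the higher, 40.8% for the lower and 68.9% for all. Among those of 10 to 20 kb they were 61.4%, 29.5% and 54.2%. The share for higher regions was above that for all regions in these bands and below 5 kb, and under it from 5 to 10 kb (37.0% against 53.5%) and over 50 kb (78.2% against 83.8%). For lower regions it was under that for all regions in each of the 6 bands. Among H3K4me3 regions the shares were 76.7% for the higher, 34.3% for the lower and 64.6% for all. Among H3K27ac-only regions they were 21.6%, 18.0% and 29.4%, and among those with neither mark 0%, 0% and 2.54%. The share for higher regions was thus above that for all regions in the H3K4me3 class alone.

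The 3 higher H3K4me3 regions with the largest differences went from almost no RNAPII to nearly full coverage. At chr9:64948560-64986863, a region of 38304 bp, RNAPII covered 0% in all 4 control livers and 95.3%, 99.1% and 100% in switched-off tumours 1 to 3, a difference of 98.1 ± 13.3 percentage points (limma SE, adjusted p = 0.000958). In tumours with Myc on the coverage there was already 53.1% to 99.7%, and all 6 Myc lists had a peak. H3K27ac coverage of the region was 0% in control livers and 39.8% ± 0.516 (SD, n = 3) in switched-off tumours. At chr11:11824947-11942165, which spans 117219 bp, control livers 1 to 4 had 1.22%, 0%, 0% and 0%, and switched-off tumours 1 to 3 had 96.9%, 95.7% and 97.3%. The region was covered to 71.6%, 89.6%, 81.3% and 2.06% in tumours 1 to 4 with Myc on, so 3 of these resembled the switched-off tumours and number 4 the controls. The short region chr10:24473350-24474714, of 1365 bp, had 0% in every control and 92.9%, 97.4% and 99.5% in the switched-off tumours. With Myc on it had a peak in tumour 2 alone, although its H3K4me3 coverage there was 96.7% ± 4.84 (SD, n = 4) and its control H3K4me3 0%. Its adjusted p was 0.00365. The call was lost against the wild-type controls alone (0.12) and with lists of equal length, where the difference was 65.1 percentage points (0.0671).

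Higher regions outside H3K4me3 included 2 without RNAPII in most or all tumours with Myc on. At chr6:34284207-34289931, an H3K27ac-only region of 5725 bp, control livers 1 to 4 had 3.00%, 0%, 0% and 0%, all 4 tumours with Myc on had 0%, and the 3 switched-off tumours had 92.0%, 81.7% and 80.4%. At chr19:39777837-39791712, 13876 bp with neither mark, the 4 controls had 0% and the switched-off tumours 73.0%, 94.2% and 100%. With Myc on, tumour 2 had 6.46% there and the others 0%. Both were called (adjusted p = 0.00221 and 0.00170, limma). Of the 11 RNAPII libraries, the 3 switched-off ones were those with high coverage at both.

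The other 4 regions of these kinds had RNAPII in 3 of the 4 tumours with Myc on. At chr2:69229101-69247440 the controls had 11.1%, 21.1%, 0% and 0% and the switched-off tumours 99.4%, 97.4% and 96.6%. Tumours 1 to 4 with Myc on had 23.2%, 18.9%, 21.0% and 0%, closer to the controls than to the switched-off tumours. H3K27ac coverage of that region was 0% in control livers, 79.4% ± 34.4 with Myc on (SD, n = 4) and 99.6% ± 0.310 after the switch (SD, n = 3). At chr13:97934167-97963733 the controls had 0% and the switched-off tumours 63.7%, 96.1% and 96.0%. The regions chr9:13603512-13620779 and chr10:62199214-62207515, with neither mark and no Myc peak in any tumour, had 0% in the controls and between 81.1% and 99.5% in the switched-off tumours. The call at the last of them was lost without switched-off tumour 2 (adjusted p = 0.0571).

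At the lower H3K4me3 regions with the largest differences, RNAPII covered nearly the whole region in control livers and little or none of it in switched-off tumours. At chr7:27620110-27629708, of 9599 bp, control livers 1 to 4 had 99.3%, 99.5%, 95.9% and 99.5%, and all 7 tumour libraries had 0%, a difference of -98.5 ± 14.7 percentage points (limma SE, adjusted p = 0.00134). At chr7:15102902-15138647, over 35746 bp, the controls had 96.5%, 98.3%, 97.9% and 95.2% and every tumour library 0%. H3K4me3 there went with RNAPII, at 24.9% ± 1.07 in controls (SD, n = 4) and 0% in both kinds of tumour. At chr2:58605085-58650371 the controls had between 96.6% and 99.2% and the switched-off tumours 0%, 0.625% and 4.64%. H3K27ac covered that region to 31.7% ± 14.1 in controls (SD, n = 4) and 57.9% ± 37.4 after the switch (SD, n = 3).

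The lower regions outside the H3K4me3 class had similar values. At chr8:95624281-95635099, of 10819 bp and with neither mark, control livers had 98.7%, 98.3%, 94.9% and 99.0% and all tumour libraries 0%. At chr1:141431931-141436879 and chr2:4946393-4973073 the controls had between 79.7% and 99.9% and all tumour libraries 0%. At the H3K27ac-only region chr10:128401511-128403755 the controls had 100%, 82.4%, 94.3% and 94.3%, and all tumours 0%. It was not free of H3K4me3, which covered 22.7% ± 45.3 of it in controls (SD, n = 4) and 0% in both kinds of tumour. H3K27ac coverage there was 100% in all controls, 25% ± 50 with Myc on (SD, n = 4) and 33.3% ± 57.7 after the switch (SD, n = 3).

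H3K27ac did not always differ in the direction of RNAPII. RNAPII covered chr14:37792851-37819166, of 26316 bp, to 93.3%, 91.8%, 93.5% and 93.6% in control livers and to 0%, 0% and 9.32% in switched-off tumours. H3K27ac covered it to 0% in the controls and to 66.3% ± 19.8 (SD, n = 3) in the switched-off tumours, with 12.7% ± 14.9 (SD, n = 4) with Myc on. Such regions were few: among the 855 lower regions, 26 (3.04%) had H3K27ac above the controls without overlap, against 17.9% of all tested regions. At the other named H3K27ac-only loss, chr1:74767345-74789169, the controls had 86.8% to 98.6% RNAPII and the switched-off tumours 0%, 13.6% and 0%, while H3K27ac coverage was 25.3% ± 22.5 and 22.2% ± 20.1.

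**Figure D3:**
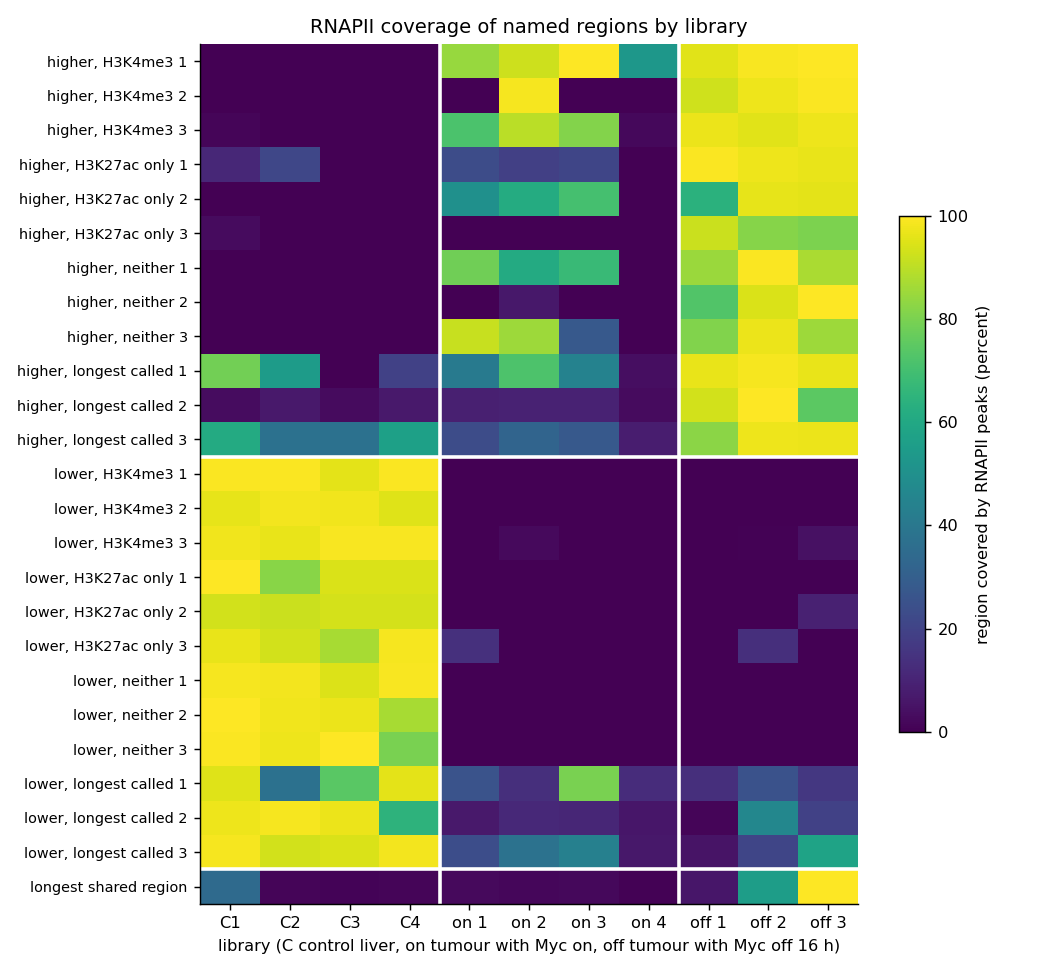
Each row is a named region and each column an RNAPII library; colour gives the percent of the region covered by peaks. Rows are numbered within each kind in order of the size of the difference, or of length for the longest called regions. Among the first 9 rows of the upper block control livers are at 21.1% or less. Among the first 9 of the middle block they are at 79.7% or more. Tumours with Myc on resemble the switched-off tumours in most rows of the middle block. At its longest called region, tumour 3 with Myc on has 79.7%, within the control range. In the upper block tumours with Myc on vary, and number 4 of them is low in most rows.

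The 3 longest called regions of each direction included 3 with an adjusted p close to the threshold. The largest difference among the longest higher ones was at chrX:103210638-103339963, of 129326 bp, where control livers 1 to 4 had 3.19%, 6.88%, 2.87% and 6.81% and switched-off tumours 1 to 3 had 93.0%, 100% and 74.7%. With Myc on the range was 2.97% to 9.76%, so the tumours with Myc on resembled the controls. H3K27ac coverage was 1.41% ± 0.940 (SD, n = 4) in controls, 8.53% ± 8.00 (SD, n = 4) with Myc on and 40.8% ± 2.59 (SD, n = 3) after the switch. At chr5:22891406-23019548 the control values of 61.1%, 37.3%, 37.5% and 56.9% stood against 82.7%, 97.4% and 97.2% after the switch and 8.18% to 32.4% with Myc on. Here the switched-off tumours were above the controls and the tumours with Myc on below them. The adjusted p was 0.0480, and between 0.0502 and 0.139 without control liver 2, 3 or 4 or switched-off tumour 2 or 3. At chr2:69048035-69182280 control livers had 78.5%, 54.8%, 0% and 19.4% and switched-off tumours 96.7%, 98.5% and 96.6%. Its adjusted p was 0.0342, and rose to between 0.0722 and 0.163 without any library of the comparison except control liver 1.

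Of the longest lower regions, chr1:73948197-74117507 had 98.6%, 93.3%, 94.5% and 98.1% in control livers and 5.15%, 20.9% and 58.1% in switched-off tumours (adjusted p = 0.00562, limma). At chr6:31000243-31173366 control livers had 97.6%, 98.7%, 97.2% and 64.5% and switched-off tumours 1.49%, 46.2% and 19.3%. H3K27ac coverage was 63.8% ± 12.9 and 61.9% ± 8.77 in the control livers (SD, n = 4) and 55.4% ± 3.29 and 57.0% ± 26.4 in the switched-off tumours (SD, n = 3), a difference within the spread at each. At chr5:125479740-125661702, the longest called region at 181963 bp, the controls had 95.2%, 37.4%, 74.6% and 95.8% and the switched-off tumours 13.4%, 25.3% and 16.1%. Tumours 1 to 4 with Myc on had 25.7%, 13.4%, 79.7% and 12.9% there. The limma adjusted p of this region was 0.0471. It lay between 0.112 and 0.167 without control liver 1, 3 or 4 or any of the 3 switched-off tumours. Against the 2 wild-type controls alone, 7 of the 24 called regions among those named lost their call, these 3 longest lower ones among them, with adjusted p between 0.0555 and 0.124.

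The longest region with a peak in all 7 libraries, chr3:27309434-27613262 with 303829 bp, was a case where libraries of each group disagreed. RNAPII covered 34.5%, 1.32%, 0.886% and 1.27% of it in control livers 1 to 4 and 5.89%, 55.8% and 100% in switched-off tumours 1 to 3. It was not called (adjusted p = 0.179), but was without switched-off tumour 1 (adjusted p = 0.0371). With Myc on it was covered to 0.759% to 2.35%.

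Part of the called regions lay within 100 kb of another region called in the same direction. Joining called regions with gaps of at most 100 kb gave 508 clusters from the 564 higher regions, of which 50 held more than 1 region, with 106 regions in all. The 855 lower regions gave 669 clusters, of which 138 held more than 1, with 324 regions in all. How often tested regions lie this close whether or not they are called was not measured. These counts therefore do not show that calls cluster beyond the spacing of the tested regions. The largest, at chr8:95576750-95861995, held 8 lower regions of 13 tested and no higher one. Its called regions were covered to 96.4%, 79.1%, 84.1% and 94.4% in control livers 1 to 4, to 0% in all 4 tumours with Myc on and to 0%, 0% and 9.19% in switched-off tumours 1 to 3. H3K27ac coverage of these regions was 50.4% in control livers and 22.1% in switched-off tumours. The next were chr15:3194419-3473285, with 5 lower regions of 11, and chr13:24370677-24640244, with 5 of 9. In the first of them RNAPII covered 84.6% ± 8.61 (SD, n = 4) in control livers and 3.83%, 55.9% and 5.16% in switched-off tumours, so switched-off tumour 2 stood between the groups. In the other it covered 75.5% ± 16.2 (SD, n = 4) and 4.05% ± 1.85 (SD, n = 3).

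The clusters of higher regions held at most 4 regions. At chrX:132599183-132786630, 4 of 6 tested regions were higher, and RNAPII covered them to 10.3%, 8.21%, 4.27% and 21.8% in control livers, 11.9% to 62.2% with Myc on and 78.6%, 90.5% and 72.6% in switched-off tumours. Mean H3K27ac coverage of those regions was 1.75% in controls and 92.9% after the switch. At chr15:81181021-81485003, 3 of 7 were higher, with 19.9% ± 2.49 in control livers (SD, n = 4), 21.3% ± 9.40 with Myc on (SD, n = 4) and 80.0% ± 21.8 in switched-off tumours (SD, n = 3). At chr2:69048035-69247440 all 3 tested regions were higher, with 31.6% ± 29.3 in control livers (SD, n = 4) and 95.6% ± 1.53 in switched-off tumours (SD, n = 3).

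Leaving aside chromosome Y, with 4 regions tested, the mean difference in coverage per chromosome ran from -6.55 percentage points on chromosome 19 to +1.69 on chromosome X. Chromosome X was also where the largest share of regions was called higher, at 24 of 418 (5.74%), and the smallest share lower, at 11 (2.63%). Its mean coverage was 34.7%, 37.1%, 22.5% and 41.4% in control livers 1 to 4 and 32.0%, 35.7% and 39.1% in switched-off tumours 1 to 3, so the groups overlapped. The 2 controls with chromosome Y peaks were the lower ones of their group, while the switched-off tumour with such peaks was the highest of its own.

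Width could be compared at the 7550 regions with a peak in all 7 libraries. RNAPII became wider at 193 regions (2.56%) and narrower at 84 (1.11%) by limma on log2 of the covered base pairs. Over all 7550 the median change was 0.20 on the log2 scale, or 1.15-fold, and 4742 regions had a positive one. The median width per region was 3760, 2622, 2747 and 3394 bp in control livers 1 to 4 and 2830, 3899 and 6758 bp in switched-off tumours 1 to 3, and switched-off tumour 1 lay within the control range. The median change over the regions was 0.03 on the log2 scale without switched-off tumour 3, 0.24 without number 2 and 0.35 without number 1. It turned to -0.24 when the medians of the libraries were set equal. Under that centring 180 regions were called wider and 315 narrower, so that 36.4% of calls were wider in place of 69.7%. Without switched-off tumour 3, 132 were wider and 209 narrower. Without switched-off tumour 1, 306 were wider and 68 narrower, and without switched-off tumour 2, 75 and 47. Without control livers 1 to 4 in turn, the wider regions numbered 207, 115, 97 and 162 and the narrower ones 45, 55, 42 and 43. Against the wild-type controls alone, 91 and 18 were called, and where every library had a single interval, 53 and 16 of 4183. The prevailing direction in width therefore turned with centring and without switched-off tumour 3.

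Regions called wider had a median change of 6.25-fold, from 2164 to 2698 bp per library in control livers to 15052, 19006 and 21536 bp in the switched-off tumours. Those called narrower had a median change of 0.189-fold. The largest widening, at chr15:79818789-79857472, went from 1908, 352, 267 and 588 bp in control livers to 31807, 9291 and 32136 bp in switched-off tumours (37.2-fold, log2 change 5.22 ± 0.78 SE, limma adjusted p = 0.0156). H3K27ac coverage of that region was 0% in control livers and 49.8% in switched-off tumours. At chr2:150609781-150672342 the covered length went from 695 to 3404 bp in control livers to 22943, 53592 and 57252 bp. At chrX:72344293-72377052 it went from 511 to 1024 bp to 21209, 27176 and 14464 bp. All 3 regions carried H3K4me3, as did 97.5% of the 7550. Myc regions present in all 6 tumours with Myc on overlapped 82.4% of the wider regions, 82.1% of the narrower ones and 80.6% of all 7550.

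The largest narrowing left a short peak in place of a long one. At chr17:87150309-87236872 RNAPII covered 80703, 72721, 65445 and 44609 bp in control livers 1 to 4 and 1134, 1125 and 3600 bp in switched-off tumours 1 to 3 (log2 change -5.27 ± 0.47 SE, limma adjusted p = 0.00314). H3K27ac coverage there was 54.5% in controls and 16.7% after the switch. At chr5:125952945-126013527 it covered 45807 to 60583 bp in control livers and 1526, 663 and 3482 bp in switched-off tumours. At chr5:118692815-118718036 it covered 18966 to 24436 bp and 822, 510 and 1071 bp. No control overlapped with a switched-off tumour at any of the 3.

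**Figure D4:**
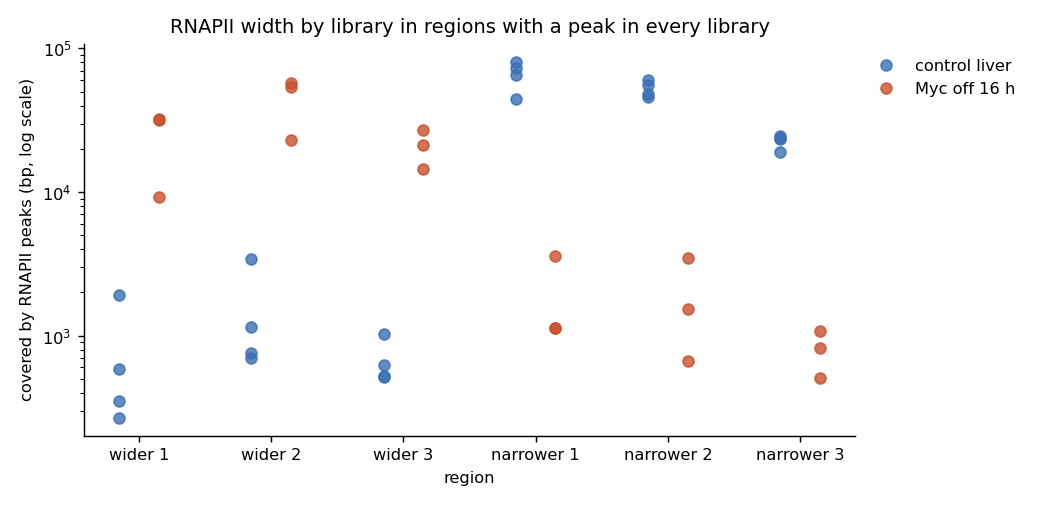
Points give the base pairs covered by RNAPII peaks in each library (log scale) at the 3 regions with the largest widening and the 3 with the largest narrowing, among regions with a peak in all 7 libraries. At the widened regions control livers lie at 3404 bp or less and switched-off tumours at 9291 bp or more; at the narrowed ones control livers lie at 18966 bp or more and switched-off tumours at 3600 bp or less.

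Shared regions were also less broken up in switched-off tumours. A shared region held 1.56, 1.5, 1.40 and 1.41 peaks on average in control livers 1 to 4 and 1.33, 1.29 and 1.25 in switched-off tumours 1 to 3 (exact permutation p = 0.0286, the smallest possible, not adjusted). More than 1 peak was found in 28.8% ± 3.41 (SD, n = 4) of the shared regions in control livers and in 21.2% ± 2.23 (SD, n = 3) in switched-off tumours, again without overlap between the groups. Shared regions held 10581 to 11782 peaks per control list and 9463 to 10007 per switched-off list. Outside shared regions the numbers were 4571 to 9149 and 1909 to 5371, so both parts of the lists were shorter, the outer part with overlap. This measure and the next were chosen after the data had been seen.

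The edges of peaks were measured at 232 of the shared regions where every library had a single interval of at least 5 kb on average and H3K4me3 lay within the outer 25% of it. The edge far from H3K4me3 lay at a median of 6822, 4846, 5394 and 6108 bp from the middle of the mark in control livers 1 to 4 and of 6784, 9224 and 11196 bp in switched-off tumours 1 to 3. It was farther out in switched-off tumours at 75.4% of these regions, by a median of 1634 bp (exact permutation of the library medians, p = 0.0571). The edge near the mark lay at 1023 ± 93.0 bp (SD, n = 4) and 1202 ± 265 bp (SD, n = 3; p = 0.229, exact permutation), and was farther out in switched-off tumours at 64.2% of the regions, by a median of 132 bp. Switched-off tumour 1 lay within the control range at the far edge, and switched-off tumours 2 and 3 above it.

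Regions defined by other antibodies gave a view that did not depend on RNAPII peaks. RNAPII covered 36.6% ± 4.09 (SD, n = 4) of the 19304 H3K4me3 regions in control livers and 35.7% ± 9.26 (SD, n = 3) in switched-off tumours (exact permutation p = 0.83). At the 13652 regions bound by Myc in all 6 tumours with Myc on, it was 64.0%, 54.0%, 52.5% and 56.0% in control livers and 49.2%, 53.8% and 66.1% in switched-off tumours (exact permutation p = 0.943). At the 3741 regions with H3K27ac alone it was 8.94% ± 4.31 and 7.58% ± 3.21 (exact permutation p = 0.714). In all 3 classes the difference was smaller than the spread of the libraries. In each, switched-off tumour 3 was the highest of its group and control liver 1 the highest of the controls.

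The largest class differences lay where a mark was listed in the controls alone, although they did not pass adjustment. At 131 regions with H3K4me3 in all 4 control livers but in none of the switched-off tumours, RNAPII covered 68.5%, 56.3%, 55.5% and 56.1% in control livers 1 to 4 and 3.17%, 4.59% and 10.2% in switched-off tumours 1 to 3 (exact permutation p = 0.0286, the smallest possible, adjusted p = 0.1 over 7 classes). In tumours with Myc on it was already low, at 6.62% ± 1.73 (SD, n = 4). At 189 regions with H3K27ac in all control livers and no switched-off tumour, the same measure was 32.4%, 22.0%, 19.5% and 20.1% in controls and 2.21%, 3.97% and 5.98% in switched-off tumours (exact permutation p = 0.0286, adjusted p = 0.1), with 3.98% ± 2.07 (SD, n = 4) with Myc on. Neither class had overlapping groups.

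Where a mark was listed in the switched-off tumours alone, the RNAPII differences were smaller. At 2263 regions with such H3K4me3, RNAPII covered 12.8% ± 4.26 (SD, n = 4) in control livers and 19.3% ± 8.29 (SD, n = 3) in switched-off tumours (exact permutation p = 0.257). At 1601 regions with such H3K27ac it covered 7.71%, 3.84%, 3.08% and 4.47% in control livers and 7.51%, 10.5% and 15.7% in switched-off tumours (exact permutation p = 0.0857, adjusted p = 0.2). Control liver 1 lay above switched-off tumour 1 in both. These 4 classes were chosen after the data had been seen.

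**Figure D5:**
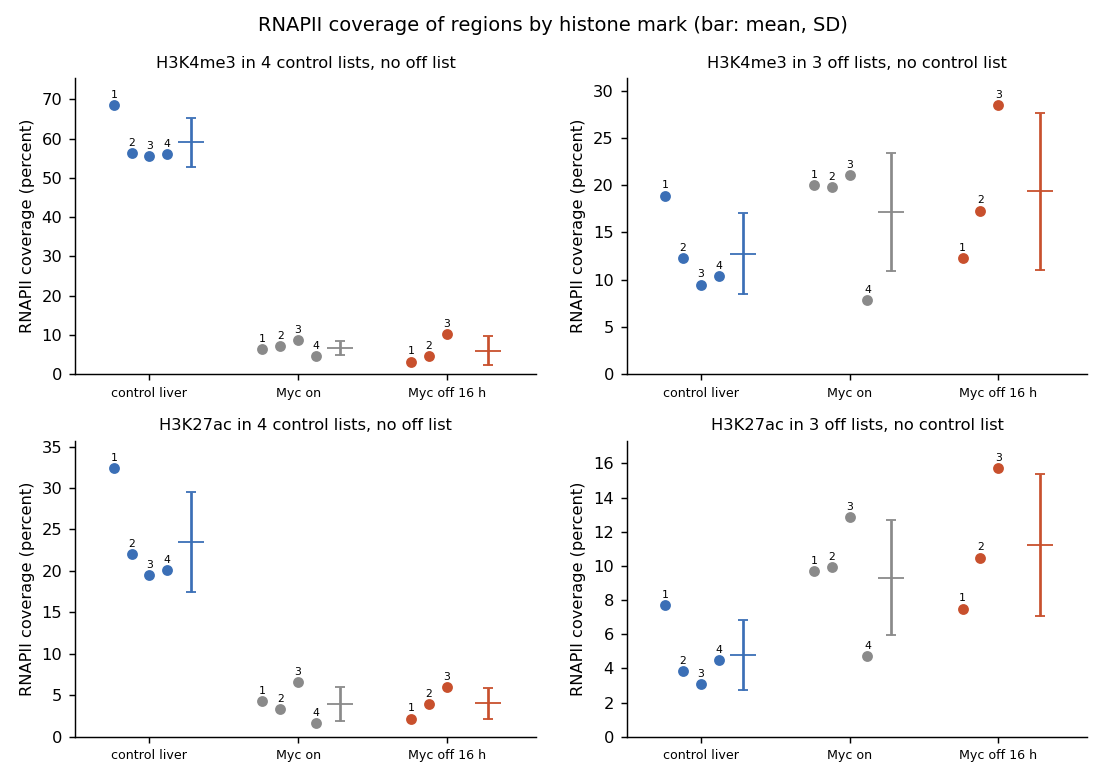
Each point is the mean percent of regions covered by RNAPII peaks in 1 library, for regions where H3K4me3 (upper row) or H3K27ac (lower row) was listed in all 4 control livers but no switched-off tumour (left) or in all 3 of the latter but no control liver (right); marks and bars give mean and SD. Where H3K4me3 was listed in the controls alone, RNAPII lay between 55.5% and 68.5% in control livers and at 10.2% or less in switched-off tumours, and tumours with Myc on lay with the latter; where a mark was listed in switched-off tumours alone the groups overlap.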

How the data were processed

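Peak lists of ChIP-seq in liver tissue were used as deposited by the authors, with 1 list per library. BWA 0.6.2, SAMtools and the build mm9 are named, per the submitters' processing notes. The RNAPII lists hold positions only, and for them a caller is not given in the sources used here. Lists of the 2 histone marks are broad MACS-type calls, per the file headers, and scores were not used. The lists hold no counts. Since the labels do not state separate animals, each p-value reflects the spread between these libraries, which may be technical.

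Peaks were merged at an overlap of 1 bp, and regions with a peak in at least 2 of the 11 RNAPII libraries were tested. Their percent covered was fitted with limma 3.58.1 (R 4.3.3; 3 groups, no covariate, mean-dependent prior variance), and log2 width with the 7 libraries alone. Calls used a Benjamini-Hochberg adjusted p below 0.05. For single values, a two-sided exact permutation test used all 35 splits. Coordinates are counted from 1. Merging used Python 3.11.15, numpy 2.4.6 and pandas 2.3.3, and plots matplotlib 3.10.9.

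On simulated data with 200 of 16931 regions changed, 0.5%, 51% and 92% were recovered at 30, 60 and 90 added percentage points, so differences of 30 points were mostly missed. For width, 0.5% and 26.5% of 200 in 7550 were recovered at a log2 change of 1 and 2. The simulation shuffled deviations from the group means, whose spread is somewhat too small, so recovery may be overstated. Simulated coverage was not kept within its possible range.

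Regions were named by rule: among called regions with no overlap between the groups, in each direction, the 3 with the largest difference in each of the classes H3K4me3, H3K27ac only and neither, and the 3 longest; the 3 largest width changes and the 3 largest clusters in each direction; and the longest region present in all 7 libraries. The members and lists were chosen with earlier results of these data known. Alternatives were other merges and filters, equal list lengths, presence, a Fisher test, another prior, coverage as a covariate, wild-type controls, a replicate block and leaving out each library.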

Additional observations from a re-analysis of the deposited data

Results flagged for a closer look

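Of 41 values examined in the 4 control livers (list values, class coverages and named regions), 7 had 1 control standing apart, with a gap to its nearest neighbour that exceeded the critical share of the control range in Dixon's test. Chance flags about 1 in 20 groups of normally distributed values, a rate that need not hold for coverages of regions picked by their values. Control liver 1 stood above the other controls in RNAPII coverage of the regions with H3K4me3 in the control lists alone, at 68.5%, and at chr3:27309434-27613262, at 34.5%. It was also the only control with any RNAPII at chr11:11824947-11942165, at 1.22%, and at chr6:34284207-34289931, at 3.00%. With all other controls without RNAPII, any coverage in the remaining one is flagged, however small. Control liver 4 stood below the others at chr2:4946393-4973073, at 79.7%, and at chr6:31000243-31173366, at 64.5%. Control liver 3 stood below them at chr7:27620110-27629708, at 95.9%, where the difference from the others was small.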

How the results depend on the processing

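The number of regions called, 1419, stayed within 1.5 times of itself when only the 7 libraries were merged (1140), without the filter (1398), with a peak required in 3 libraries (1561), with gaps of 1 kb joined (1317), with peaks of at least 1 kb (1035), lists of equal length (950), presence (1054), a constant prior variance (1309) and wild-type controls (1173). It was 2374 with mean coverage as a covariate. The count under presence carries little weight, since limma had no spread to measure where the libraries of each group agreed. Fisher's exact test on presence called 0 regions, with 1163 at an unadjusted p below 0.05, against 4060 for limma. With 4 libraries against 3, Fisher's p cannot go below 0.0286. The adjusted p at that floor was 0.416, so no region could pass, and the 0 calls decide nothing. Leaving out each library gave 630 to 1345 limma calls. Width calls, 277, were 69 at single intervals, 495 with medians centred, 109 with wild-type controls, and 122 to 374 leaving out each library. The library numbers were taken as no pairing: deviations of same-numbered libraries correlated at 0.04 to 0.07, and genotypes differed. With the number as a replicate block, 759 regions were called (321 higher, 438 lower). That fit also left out control liver 4 and tumour 4 with Myc on, and leaving out control liver 4 alone gave 1082. By width, with the block and without control liver 4, 0 were called, with 1004 at an unadjusted limma p below 0.05. Leaving out control liver 4 without the block gave 205 width calls. Class differences near 0 changed sign: H3K27ac only regions to 1.31 and Myc-bound regions to 2.14 with wild-type controls, Myc-bound regions to 0.752 with peaks of at least 1 kb, and peaks over neither mark to 2.47 percentage points when 50% overlap was required. Leaving out each library gave -6.16 to 2.66 for H3K4me3 regions, -2.96 to 0.748 for H3K27ac only regions, -5.08 to 3.34 for Myc-bound regions, and -8.66 to 29.6 Mb for covered length, negative only without switched-off tumour 3. The causes were not tested. No named region changed direction in a limma fit; under presence 12 of the 24 called ones, and against wild-type controls 7, lost their call. The unknown depth of the libraries limits all values.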
